A study of Mus musculus with 30 samples.

Results

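The SMN complex genes of the mouse, Smn1, Gemin2, Ddx20 (which encodes Gemin3), Gemin4, Gemin5, Gemin6, Gemin7, Gemin8 and Strap (also called Unrip), were followed in bulk RNA sequencing of mammary tumours. These 9 genes were chosen by symbol out of 21841 genes in the count table, because Gemin5 had been lower with KCL-HO-1i in these same libraries and the other 8 genes encode its partners. All 9 were among the 13663 genes that passed the filter on low counts. The KCL-HO-1i comparison therefore selected Gemin5, and its values in that comparison are given as a description, with no test read from them.

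The tumours arose in FVB/N-Tg(MMTV-PyVT)634Mul/J animals, in which the MMTV promoter drives the polyoma middle T oncogene in the mammary epithelium. There were 30 libraries in 6 groups of 5, and every mouse carried the transgene (the genotype label reads WT throughout). The treatments were KCL-HO-1i alone, a chemotherapy alone (5-fluorouracil, written 5-FU, or gemcitabine), KCL-HO-1i together with either of them, and vehicle. KCL-HO-1i inhibits heme oxygenase-1, which Hmox1 encodes and which breaks down heme, and both chemotherapies block DNA synthesis. Per the labels, tumours were collected after 72 hours. The doses, all injected into the peritoneum, were 64 mg/kg of gemcitabine at intervals of 7 days, 40 mg/kg of 5-FU at intervals of 4 days, and 25 µmol/kg of KCL-HO-1i each day. The methods and figures of the study state less time on treatment and a gemcitabine dose about an order of magnitude lower, and which holds for these tumours was not settled. Animal ages were not in the labels used here, and nothing states whether tumours of one group came from separate litters.

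The SMN complex builds the small nuclear ribonucleoproteins (snRNPs) that remove introns from messenger RNA precursors. In the cytoplasm Gemin5 recognises the small nuclear RNA, SMN with Gemin2 holds the Sm proteins, and the complex closes the Sm ring around the RNA before the particle is imported into the nucleus. Loss of human SMN1 causes spinal muscular atrophy.

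The upstream sequences of Gemin5 and of the 3 partners with the largest KCL-HO-1i differences (Gemin6, Ddx20 and Smn1) are shown so that their motif matches can be compared. Each is the 250 bases before the start of the RefSeq transcript in GRCm38.p6, read 5′ to 3′ on the gene's own strand. RefSeq gave 2 starts each for Gemin5 and Smn1, and the window shown is that nearer to a GENCODE transcript start. Capitals mark matches on either strand to 7 motifs that were searched. Of these, the CRE letters TGACGTCA, the ETS letters CCGGAAG, the MARE-like letters TGACNNNGC, the GC box GGGCGG and the CCAAT box occur below. The E-box CACGTG and a palindromic NRF1 motif were searched as well.
Gemin5, chr11:58168540-58168789, minus strand: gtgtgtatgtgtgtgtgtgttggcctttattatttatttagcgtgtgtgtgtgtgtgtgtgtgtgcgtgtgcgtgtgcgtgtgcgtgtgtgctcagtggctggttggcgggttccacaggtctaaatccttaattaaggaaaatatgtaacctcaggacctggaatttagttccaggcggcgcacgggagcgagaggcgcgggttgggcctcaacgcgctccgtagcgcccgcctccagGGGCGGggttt
Gemin6, chr17:80224201-80224450, plus strand: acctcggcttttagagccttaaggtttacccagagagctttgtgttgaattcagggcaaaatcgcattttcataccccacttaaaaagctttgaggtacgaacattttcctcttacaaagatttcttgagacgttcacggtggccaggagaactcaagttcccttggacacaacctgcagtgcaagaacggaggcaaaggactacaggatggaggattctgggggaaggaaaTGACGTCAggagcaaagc
Ddx20, chr3:105687572-105687821, minus strand: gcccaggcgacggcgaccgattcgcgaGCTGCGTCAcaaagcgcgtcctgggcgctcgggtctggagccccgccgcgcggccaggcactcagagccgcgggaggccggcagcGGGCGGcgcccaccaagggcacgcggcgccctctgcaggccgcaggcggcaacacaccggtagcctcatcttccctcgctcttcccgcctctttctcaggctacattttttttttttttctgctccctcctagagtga
Smn1, chr13:100124605-100124854, plus strand: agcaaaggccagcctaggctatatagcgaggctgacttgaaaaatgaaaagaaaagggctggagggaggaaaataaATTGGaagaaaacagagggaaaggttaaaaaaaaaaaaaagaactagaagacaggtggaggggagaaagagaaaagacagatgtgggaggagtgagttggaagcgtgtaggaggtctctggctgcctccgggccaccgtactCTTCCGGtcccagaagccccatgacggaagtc
The Gemin5 window held 1 GC box, 11 bases before the start, a motif present in the windows of 35.4% of 27025 genes, while the window of its other RefSeq start held 2. The Gemin6 window held TGACGTCA, starting 18 bases before the transcript, which 1.77% of genes carried. The Smn1 window held CCGGAAG in reverse, 32 bases before the start, a motif found for 7.83% of genes, and 1 reversed CCAAT box (37.5% of genes), while the window of its other start held none of the motifs. The Ddx20 window held TGACNNNGC in reverse, 223 bases before the start (11.5% of genes), and 1 GC box. No motif other than the GC box was shared between these 4 windows, and a match is only a match of letters.

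Total counts per library ran from 10067577 to 13622264, and the members were sampled by between 59 reads (Gemin8 in 1 library) and 2279 reads (Strap). The luminal epithelial markers matched the labelled breast tissue: all 9 were above 0 in every library, and their summed level ran from 2556 to 6062 CPM (read counts relative to library size). Hmox1 was between 12.1 and 84.7 CPM in the 15 libraries without KCL-HO-1i and between 47.8 and 1198 CPM in the 15 with it. The average log2 difference for Hmox1 was 2.42 (SE 0.38, adjusted p = 0.0113, edgeR quasi-likelihood test with Benjamini-Hochberg adjustment).

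All 9 genes were expressed in every tumour, and their levels spanned roughly an order of magnitude once scaled by transcript length. In the vehicle group Strap, a WD-repeat protein that binds the complex, had the highest mean level at 50.9 ± 6.13 CPM per kilobase (SD, n = 5), and Gemin7, an Sm-like subunit that pairs with Gemin6, followed at 43.2 ± 6.48. Smn1, the subunit that gives the complex its name, stood at 24.4 ± 1.85 CPM per kilobase. The remaining means were 13.8 for Gemin6, 10.2 for Ddx20, 9.27 for Gemin2, 7.70 for Gemin5, 7.31 for Gemin4 and 5.45 for Gemin8 on the same scale. The ranges of Strap and Gemin7 overlapped, as did those of each neighbouring pair from Gemin6 down to Gemin8, whereas Smn1 lay apart from both of its neighbours in all 5 vehicle tumours. Lengths were those of the longest basic coding transcript in GENCODE vM21, and tumours may use others.

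Gemin5, the WD-repeat subunit that recognises the small nuclear RNA, lies at chr11:58120002-58168539 on the minus strand. In vehicle tumours it measured 42.3, 42.4, 57.8, 50.3 and 46.6 CPM, and in KCL-HO-1i tumours 44.0, 38.9, 39.8, 45.3 and 36.1 CPM. In 5-FU tumours it measured 47.0, 51.9, 49.5, 43.0 and 38.4 CPM, and with KCL-HO-1i added 33.5, 34.6, 30.9, 46.1 and 29.0 CPM. In gemcitabine tumours it measured 63.27, 51.8, 60.6, 50.8 and 44.5 CPM, and with KCL-HO-1i added 40.6, 41.0, 40.0, 33.6 and 38.2 CPM. The gemcitabine groups did not overlap, 4 of the 5 KCL-HO-1i/5-FU tumours were below every 5-FU tumour, and 3 of the 5 KCL-HO-1i tumours were below every vehicle tumour. In all, 14 of the 15 tumours given KCL-HO-1i lay below the mean of the matching group without it. These are the values by which Gemin5 was chosen. The share of all tested genes that separate the same groups was not computed. Nothing is therefore read from such separations, here or for the members below.

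**Figure D1:**
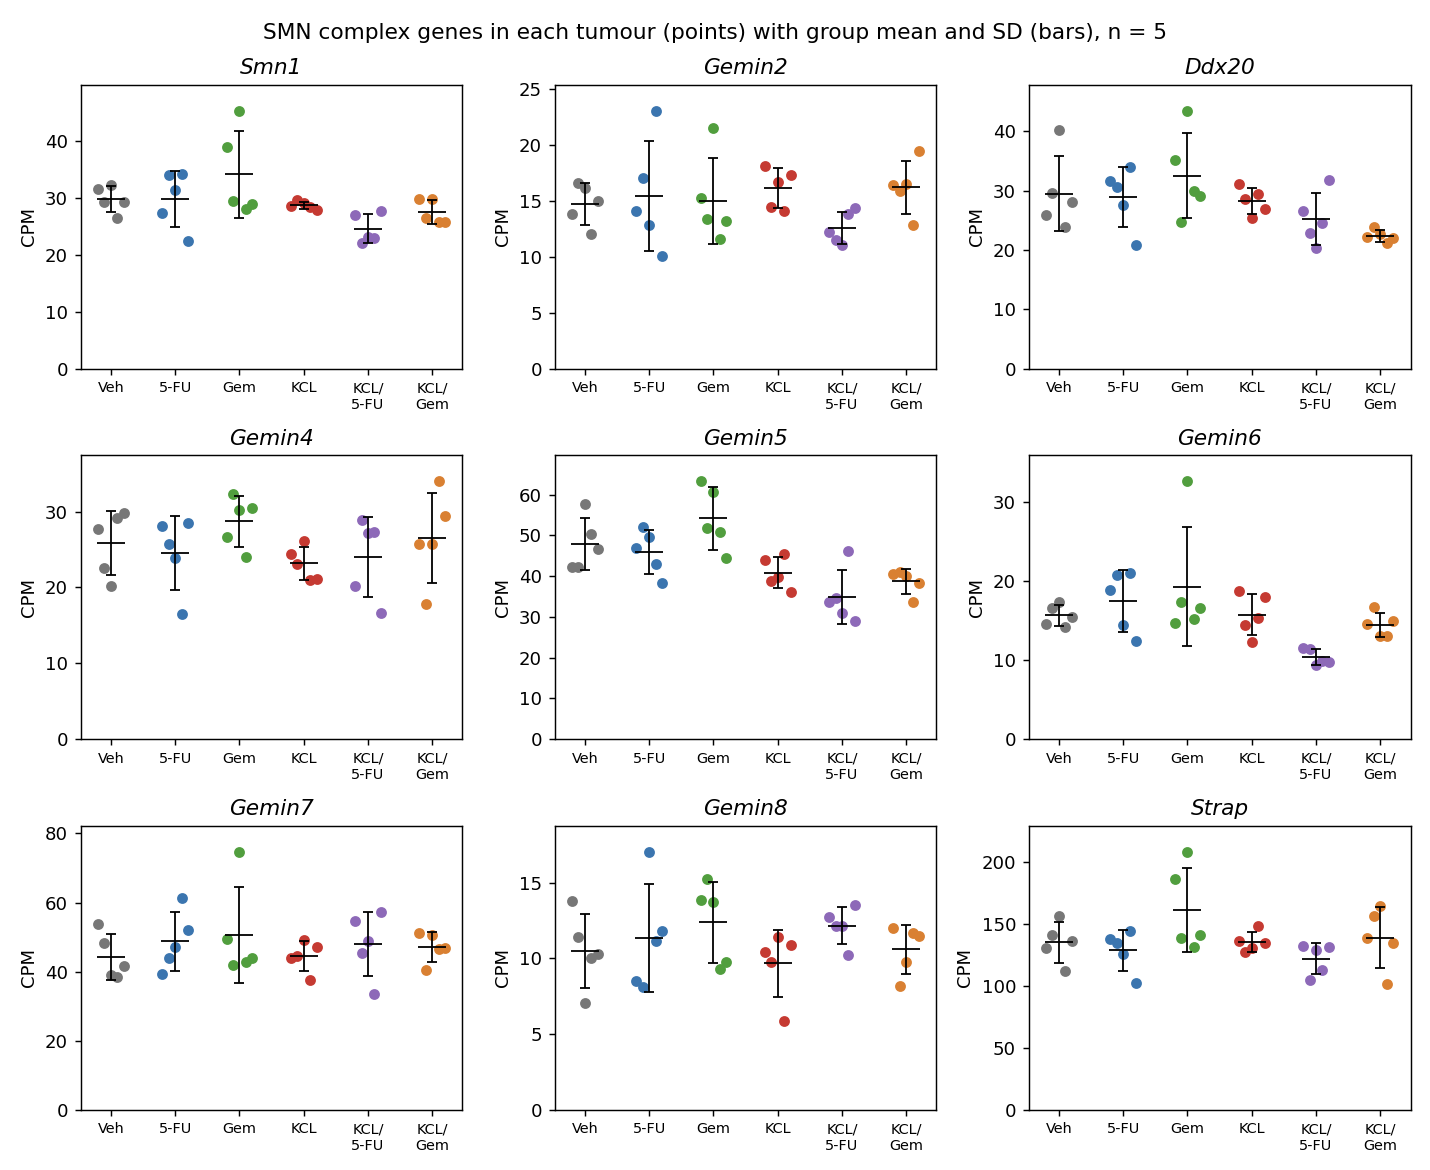
Level of each SMN complex gene in CPM (vertical axes, starting at 0) in the 6 treatment groups. Each point is a tumour and the black bars are the mean ± SD (n = 5); Gemin5 is lower in the 3 groups with KCL-HO-1i, and Gemin6 is lowest in KCL-HO-1i/5-FU at 10.4 ± 1.03 CPM.

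The group means of Gemin5 were ordered from gemcitabine (54.2 ± 7.66 CPM, SD, n = 5) through vehicle (47.9 ± 6.46), 5-FU (46.0 ± 5.37), KCL-HO-1i (40.8 ± 3.80) and KCL-HO-1i/gemcitabine (38.7 ± 3.04) to KCL-HO-1i/5-FU (34.8 ± 6.66). Each neighbouring pair in that order overlapped in its ranges. The log2 difference with KCL-HO-1i was -0.23 (SE 0.12) against vehicle, -0.40 (SE 0.12) beside 5-FU and -0.49 (SE 0.12) beside gemcitabine. Averaged over the 3 backgrounds it was -0.37 (SE 0.07), with an adjusted p of 0.0275 from the edgeR quasi-likelihood test, the value by which Gemin5 was chosen. The last gene inside the threshold of 0.05 was Lcp2 (adjusted p = 0.0313, edgeR) and the first outside it Bin2 (adjusted p = 0.0520, edgeR). Gemin5 was the only gene of the 8 past the threshold that was lower with KCL-HO-1i.

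Whether Gemin5 passed the threshold depended on which libraries entered, although the sign of its difference did not. The difference was negative in all 43 alternatives and past the threshold in 25. These 25 included a fit with the replicate number as a factor, but none with a marker score or the mouse code. Leaving out 1 library put the adjusted p between 0.00701 and 0.0704 (edgeR), and the call was lost without replicate 3 or 5 of vehicle, 1 or 2 of 5-FU, 1 or 3 of gemcitabine, 2 or 3 of KCL-HO-1i, 2 or 3 of KCL-HO-1i/5-FU, or 1 or 5 of KCL-HO-1i/gemcitabine. With the number of the mouse code in the labels as a factor the difference was -0.053 (adjusted p = 0.918, edgeR). These codes take 13 values, their meaning is not stated, and only 3 of them occur both with and without KCL-HO-1i. For code 84 Gemin5 was 42.3 CPM in vehicle and 38.2 CPM in KCL-HO-1i/gemcitabine. For code 69 it was 43.0 CPM in 5-FU and 45.3 CPM in KCL-HO-1i. For code 74 it was 38.4 CPM in 5-FU against 34.6 and 46.1 CPM in KCL-HO-1i/5-FU. Chemotherapy also differed within codes 84 and 69, so only code 74 matched the background, and there the direction was mixed. Code and treatment can hardly be told apart elsewhere.

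The partners of Gemin5 spanned a range of differences in the same comparison, and no test set them against Gemin5. Of the 9 genes, 1 was past the adjusted threshold in the KCL-HO-1i average, where 0.0586% of all tested genes were, and 4 had an unadjusted p under 0.05 (Gemin5, Gemin6, Ddx20 and Smn1), where 23% of all tested genes did. All 9 fitted averages were negative, where 50.2% of all tested genes were. Their median log2 difference was -0.10, beside -0.0007 for all tested genes. Against vehicle alone 5 members were negative and 4 positive (52.1% of all genes negative), with a median of -0.05. Beside 5-FU 8 members were negative (46.7% of all genes), and beside gemcitabine 8 (49.9% of all genes). DESeq2 called 4 members, where it called 8.34% of all tested genes, and limma-voom 2, where it called 1.92%. Nothing is read from these counts, since the same contrast chose Gemin5.

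Gemin6, which with Gemin7 forms an Sm-like pair inside the complex, had the largest average difference at -0.38 (SE 0.11, adjusted p = 0.0558, edgeR). In 5-FU tumours it measured 18.9, 20.8, 14.4, 21.0 and 12.4 CPM, and in KCL-HO-1i/5-FU tumours 11.6, 11.5, 9.42, 9.88 and 9.79 CPM. Vehicle tumours measured 14.7, 16.6, 17.4, 14.2 and 15.5 CPM, and KCL-HO-1i tumours 18.7, 14.5, 12.3, 15.3 and 18.0 CPM. Every KCL-HO-1i/5-FU tumour was thus below every 5-FU tumour, while the vehicle and KCL-HO-1i groups overlapped. In gemcitabine tumours Gemin6 measured 14.7, 17.4, 32.7, 15.3 and 16.6 CPM, and with KCL-HO-1i added 14.6, 16.8, 13.1, 13.0 and 14.9 CPM, so that these groups overlapped too. Gemcitabine replicate 3, at 32.7 CPM, stood far above the other gemcitabine tumours. By background the Gemin6 difference was 0.008 (SE 0.18) against vehicle, -0.75 (SE 0.18) beside 5-FU and -0.42 (SE 0.18) beside gemcitabine.

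Ddx20, a DEAD-box helicase, and Smn1 were next. Ddx20 measured 25.8, 29.6, 40.3, 23.9 and 28.0 CPM in vehicle and 31.1, 28.5, 25.4, 29.5 and 27.0 CPM in KCL-HO-1i tumours, 31.6, 30.6, 27.5, 34.0 and 20.9 CPM in 5-FU and 26.5, 22.9, 20.3, 24.6 and 31.9 CPM in KCL-HO-1i/5-FU tumours. In gemcitabine tumours it measured 35.2, 24.8, 43.5, 30.0 and 29.1 CPM, and with KCL-HO-1i added 22.2, 23.9, 22.7, 21.3 and 22.0 CPM. Only the gemcitabine pair of groups did not overlap for Ddx20. Its average difference was -0.26 (SE 0.09, adjusted p = 0.0811, edgeR). By background the Ddx20 difference was -0.06 (SE 0.15) against vehicle, -0.20 (SE 0.15) beside 5-FU and -0.54 (SE 0.15) beside gemcitabine.

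For Smn1 all 15 tumours given KCL-HO-1i lay below the mean of the matching group. It measured 31.7, 29.2, 32.2, 26.5 and 29.3 CPM in vehicle and 28.6, 29.6, 29.1, 28.4 and 28.0 CPM in KCL-HO-1i tumours. It measured 27.4, 34.0, 31.3, 34.1 and 22.5 CPM in 5-FU and 27.1, 22.1, 23.1, 23.0 and 27.8 CPM in KCL-HO-1i/5-FU tumours. It measured 39.0, 29.5, 45.3, 28.1 and 29.0 CPM in gemcitabine and 29.9, 26.6, 29.8, 25.7 and 25.8 CPM in KCL-HO-1i/gemcitabine tumours. The ranges overlapped in each of the 3 backgrounds, and the average difference was -0.21 (SE 0.07, adjusted p = 0.0828, edgeR). By background the difference was -0.051 (SE 0.12) against vehicle, -0.28 (SE 0.12) beside 5-FU and -0.31 (SE 0.12) beside gemcitabine.

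The other members gave small averages with intervals that included 0. They were -0.10 (SE 0.10) for Gemin4, -0.10 (SE 0.08) for Strap and -0.08 (SE 0.12) for Gemin8, which links Gemin6 and Gemin7 to the rest. They were -0.04 (SE 0.09) for Gemin7 and -0.02 (SE 0.10) for Gemin2, a partner that binds SMN directly. Across all libraries Gemin2 ran from 10.1 to 23.1 CPM, Gemin4 from 16.5 to 34.0, Gemin7 from 33.7 to 74.7, Gemin8 from 5.87 to 17.0 and Strap from 101 to 208 CPM. None of these 5 genes separated a pair of groups with and without KCL-HO-1i. The sign of the average changed in 8 of 43 alternatives for Gemin2, in 4 for Gemin7 and in 1 each for Gemin4 and Strap.

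**Figure D2:**
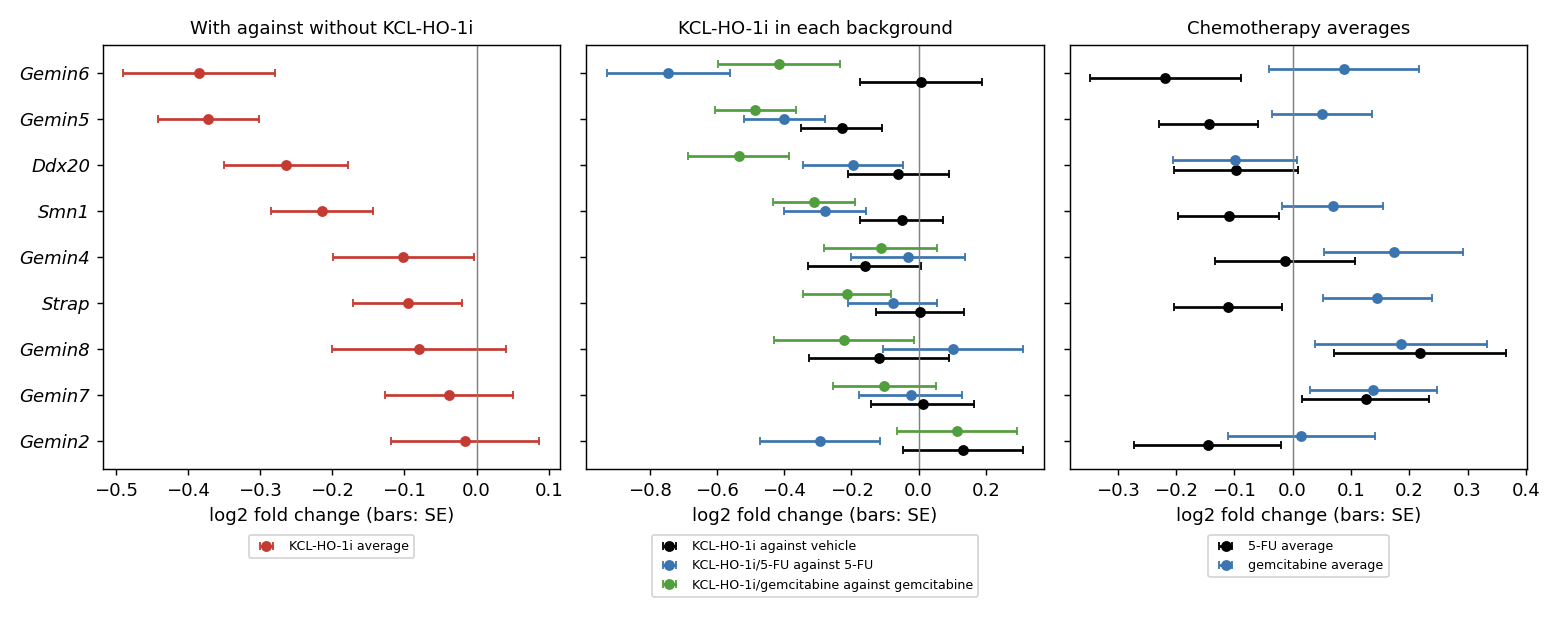
Log2 fold change (horizontal axes) of each gene with its SE, averaged over backgrounds (left), in each background (middle) and for the chemotherapy averages (right). Gemin6, Gemin5, Ddx20 and Smn1 lie furthest below 0 on the left, at -0.38, -0.37, -0.26 and -0.21, while the chemotherapy averages of all 9 genes lie between -0.22 and 0.22.

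The chemotherapies, whose comparisons did not enter the choice of genes, changed no member past the threshold. By the edgeR quasi-likelihood test 0 of 9 members passed in the 5-FU average, where 0% of all tested genes did, and 0 had an unadjusted p under 0.05, where 12% of tested genes did. DESeq2 also called 0 members there (0.117% of all genes), and limma-voom 0 (0% of all genes), with 1 member at an unadjusted p under 0.05 by limma-voom. In the gemcitabine average 0 of 9 members passed (0% of all genes), and 0 had an unadjusted p under 0.05 (5.14% of all genes), and DESeq2 and limma-voom called 0 as well. The 5-FU averages ran from -0.22 (SE 0.13) for Gemin6 to 0.22 (SE 0.15) for Gemin8, and the gemcitabine averages from -0.10 (SE 0.11) for Ddx20 to 0.19 (SE 0.15) for Gemin8. For Gemin5 they were -0.14 (SE 0.09) and 0.05 (SE 0.09).

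Whether the KCL-HO-1i difference itself changed with chemotherapy was tested with interaction terms, and no member passed. In the 5-FU interaction 0 of 9 members passed by edgeR (0% of all genes), and 1 had an unadjusted p under 0.05 (8.53% of all genes). That member was Gemin6, whose difference beside 5-FU exceeded that against vehicle by -0.75 (SE 0.26, adjusted p = 0.452, edgeR). In the gemcitabine interaction 0 of 9 passed (0% of all genes), and 1 had an unadjusted p under 0.05 (1.34% of all genes), namely Ddx20 at -0.48 (SE 0.21, adjusted p = 1.00, edgeR). For Gemin5 the interactions were -0.17 (SE 0.17) and -0.26 (SE 0.17). DESeq2 called 0 members in the 5-FU interaction (0.161% of all genes) and 0 in the gemcitabine interaction (0% of all genes), and limma-voom called 0 in both (0% of all genes).

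The wider snRNP assembly pathway was examined through 40 genes in 6 lists, and none passed in the KCL-HO-1i average by edgeR, while DESeq2 called 2 (beside 8.34% of all tested genes) and limma-voom 1 (beside 1.92% of all tested genes). Of these 40 genes, 11 had an unadjusted p under 0.05, against 23% of all tested genes. Among the Sm core proteins, which form the ring, all 8 averages were negative with a median of -0.14, and the smallest p belonged to Snrpd2 (-0.23, SE 0.12) and Snrpn (-0.14, SE 0.09). In the methylosome, which methylates Sm proteins before assembly, all 6 were negative with a median of -0.13, and the smallest p belonged to the methyltransferase Prmt5 (-0.20, SE 0.06, adjusted p = 0.0616, edgeR) and to Clns1a (-0.23, SE 0.09), the chaperone pICln. The snRNP-specific proteins had a median of -0.19 over 5 genes, with Snrnp70, of the U1 particle, at -0.20 (SE 0.08) and Snrpc at -0.15 (SE 0.08). These list medians lay below 0 and below the all-gene median of -0.0007, which was not tested. Gemin5 was chosen by this same contrast, so the medians are not set against its difference.

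In the list of snRNA transport and cap proteins 6 of 7 averages were negative with a median of -0.08, and those with the smallest p were Kpnb1 (importin beta, -0.27, SE 0.09) and Xpo1 (the exportin CRM1, -0.22, SE 0.10). Of the 9 LSm proteins, which bind U6 or U7 RNA, 8 were negative with a median of -0.11, and the smallest p belonged to Lsm2 (-0.23, SE 0.11) and Lsm4 (-0.20, SE 0.10). The 5 Cajal body genes and SMN partners were all negative with a median of -0.16, with Sart3, a U6 recycling factor, at -0.19 (SE 0.06) and Nolc1, a nucleolar phosphoprotein, at -0.35 (SE 0.12). Against vehicle alone the medians of the 6 lists lay between -0.14 and 0.10, so the negative values lay mainly in the chemotherapy backgrounds. Whether the backgrounds differ was not tested for these lists.

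**Figure D3:**
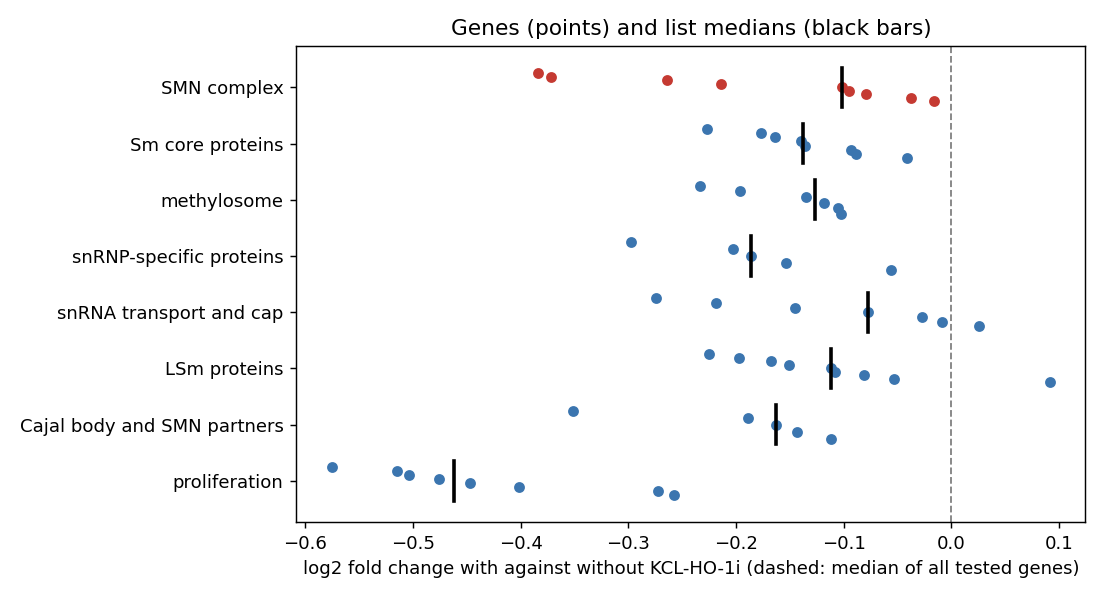
Log2 fold change with against without KCL-HO-1i, averaged over backgrounds (horizontal axis), for each gene (points) of the SMN complex, 6 snRNP lists and 8 proliferation genes, with list medians as black bars. The SMN complex has a median of -0.10 and a long tail to Gemin6 and Gemin5, while the proliferation genes have a median of -0.46.

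Proliferation genes and most tissue markers also differed in their averages with KCL-HO-1i, none past the adjusted threshold by edgeR. In bulk tumours fewer cells of a type and less RNA per cell cannot be told apart. All 8 proliferation genes (Mki67, Top2a and others) had negative averages. Of these, 6 had an unadjusted p under 0.05 by edgeR, where 23% of all tested genes did. Their mean log2 score was 0.42 lower with KCL-HO-1i (6.08 against 6.50). Their summed level ran from 664 to 979 CPM in vehicle, 294 to 873 in 5-FU, 681 to 1771 in gemcitabine, 617 to 921 in KCL-HO-1i, 255 to 819 in KCL-HO-1i/5-FU and 514 to 878 CPM in KCL-HO-1i/gemcitabine. None of these 8 genes was at 0 in any library. With this score as a covariate, an alternative added after the data were seen, the Gemin5 difference was -0.28 (adjusted p = 0.230, edgeR).

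Markers of other tissues had mostly positive averages with KCL-HO-1i, but no adipocyte, muscle, macrophage, fibroblast or endothelial marker passed the adjusted threshold (smallest adjusted p = 0.0532, edgeR). All 10 adipocyte markers had positive averages, and their summed level ran from 29.5 to 1739 CPM in the 15 libraries without KCL-HO-1i and from 28.1 to 9014 CPM in those with it, with Adipoq at 0 in 3 libraries. All 8 skeletal muscle markers had positive averages, and their summed level ran from 4.81 to 220.0 CPM without and from 7.93 to 12378 CPM with KCL-HO-1i, with Acta1 at 0 in 2 libraries. By background the muscle score was 5.41 higher against vehicle, 2.82 higher beside gemcitabine and differed by -1.75 beside 5-FU, where all 8 muscle markers had negative values. The proliferation score differed by -0.10 against vehicle, -0.64 beside 5-FU and -0.51 beside gemcitabine.

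The macrophage markers, 8 of 8 with positive averages, summed to between 72.9 and 616 CPM without and between 282 and 777 CPM with KCL-HO-1i, with Lyve1 at 0 in 2 libraries. The fibroblast score was 1.13 and the endothelial score 0.46 higher with KCL-HO-1i, the luminal score differed by -0.16 and the T cell score by 0.05. With a tissue score as a covariate the Gemin5 difference was -0.37 for adipocytes (adjusted p = 0.142), -0.35 for macrophages (adjusted p = 0.590) and -0.35 for luminal epithelium (adjusted p = 0.0915), all by edgeR. Without the 7 libraries whose summed adipocyte or muscle markers exceeded 1000 CPM (1 gemcitabine, 3 KCL-HO-1i and 3 KCL-HO-1i/gemcitabine), it was -0.43 (adjusted p = 0.334, edgeR). Adjusted p depends on all genes: 3137 of 13663 had an unadjusted p under 0.05 in the main fit. With the adipocyte, macrophage and luminal scores these were 1388, 743 and 1999. The part of tissue composition in the Gemin5 difference was not tested.

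Within groups, on a measure that the KCL-HO-1i comparison did not use, Smn1, Gemin2, Ddx20 and Strap varied together from tumour to tumour. Correlations were computed on log2 CPM after removal of the group means, over 30 libraries and 36 pairs, with permutation p-values adjusted over the 36 pairs. Of these pairs 24 were positive and 13 passed an adjusted p of 0.05, 11 of them positive. The strongest was Smn1 with Strap (r = 0.77, rho = 0.73, permutation adjusted p = 0.00162), followed by Smn1 with Ddx20 (r = 0.75, rho = 0.68, permutation adjusted p = 0.00173). Ddx20 with Strap (r = 0.73, rho = 0.78) had an unadjusted permutation p of 1e-05, the smallest that the permutations can give. All 6 pairs among Smn1, Gemin2, Ddx20 and Strap passed, with r between 0.69 and 0.77. Without the 2 tumours farthest from the median r was between 0.56 and 0.68. For each pair these were the 2 farthest from the median of 1 of its genes, so they can differ between pairs. Gemin6 correlated with Gemin2 (r = 0.71) and Ddx20 (r = 0.63). Its r with Strap of 0.55 was 0.33 without the 2 tumours farthest from the median of Gemin6. Gemin6 with Smn1 did not pass (r = 0.54, rho = 0.35, permutation adjusted p = 0.0854), and r was 0.19 without the 2 farthest tumours. The share of other gene pairs that would pass was not computed. Median r with the other members ran from 0.56 for Gemin2 and Smn1 down to -0.05 for Gemin8 and -0.30 for Gemin4. With all tested genes the median r of Smn1 was -0.03 (quartiles -0.27 and 0.29). Whether the shared variation is particular to the complex was not tested.

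The correlations of Gemin5 with the members were lower in value. Its highest r with a member was 0.42 (rho = 0.47), with Ddx20, and no pair with Gemin5 passed the adjusted threshold. Gemin7 and Gemin8, which bind each other in the complex, correlated with r = 0.55 (rho = 0.59, permutation adjusted p = 0.00601), and Gemin7 also with Smn1 (r = 0.58). Whether Gemin5 correlates less with the members than they do with each other was not tested.

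Gemin4, which binds Ddx20 in the complex, ran the other way. Its r was -0.57 with Ddx20 (rho = -0.56, permutation adjusted p = 0.00592) and -0.52 with Strap (rho = -0.57, permutation adjusted p = 0.0273). Its counts are uncertain. In the annotation, Gemin4 (chr11:76210571-76217664, minus strand) shares 3353 of its 3734 exon bases with exons of Glod4 on the same strand. It shares 2875 with Fam57a on the opposite strand. Exons of all transcripts of a gene were joined for this. Reads may therefore have been divided between genes, depending on the annotation and strand setting of the counts, which are not given. Within groups Gemin4 correlated with Glod4 at r = 0.41 (rho = 0.33, r = 0.26 without the 2 farthest tumours) and with Fam57a at r = 0.39 (rho = 0.14), given without a test. The part of any such division in the negative correlations was not tested. Gemin7 shares 263 exon bases with Zfp296 on the opposite strand, and no other member shares exon bases with another gene.

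**Figure D4:**
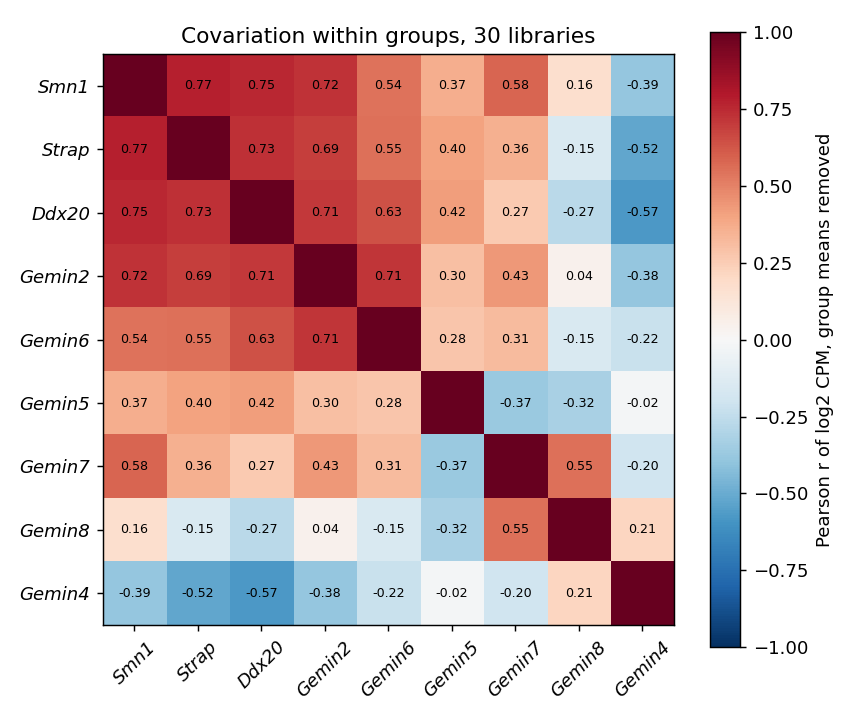
Pearson r between SMN complex genes (rows and columns) over 30 libraries after removal of group means, from -1 (blue) to 1 (red). Smn1, Strap, Ddx20 and Gemin2 form a red block with r from 0.69 to 0.77, Gemin6 with Smn1 (0.54) did not pass the test, Gemin5 has r of at most 0.42, and Gemin4 is negative with Ddx20 at -0.57.

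Proliferation was the score that the members followed most often. Over 72 pairs of a member with one of 8 scores, adjusted together, the proliferation score correlated within groups with Smn1 (r = 0.71), Ddx20 (r = 0.70), Gemin2 (r = 0.69), Strap (r = 0.67) and Gemin5 (r = 0.63), each past an adjusted permutation p of 0.05. For Gemin5 the rho was 0.61, the permutation adjusted p 0.0212, and r without the 2 tumours farthest from the median score 0.67. Gemin6 gave r = 0.54 (permutation adjusted p = 0.0562), Gemin7 0.03, Gemin8 -0.07 and Gemin4 -0.34. Ddx20 was also negatively correlated with the fibroblast score (r = -0.55, permutation adjusted p = 0.0212) and the macrophage score (r = -0.55, permutation adjusted p = 0.0482), and Smn1 and Gemin2 with the endothelial score (r = -0.44 and -0.45). Gemin5 had r between -0.20 and 0.17 with the other 7 scores. The share of all tested genes that follow the proliferation score as closely was not computed. The count of members is therefore not read as a trait of the complex.

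**Figure D5:**
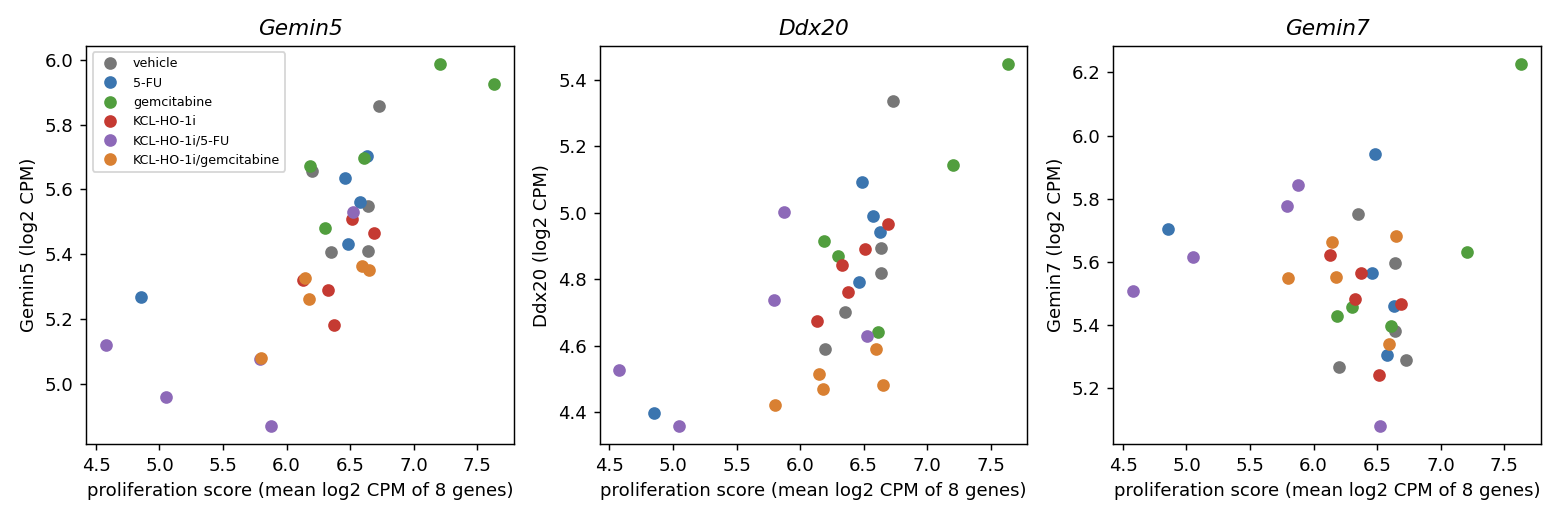
Level of Gemin5, Ddx20 and Gemin7 (log2 CPM, vertical axes) against the proliferation score (mean log2 CPM of 8 genes, horizontal axes), with 1 point for each of 30 tumours coloured by group. Gemin5 and Ddx20 are higher where the score is higher (within-group r of 0.63 and 0.70), and Gemin7 shows no such slope (r = 0.03).

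The 5 genes most like Gemin5 within groups held no member, which is uninformative with so few members among 13662 genes. The 5 highest of 13662 were Kpnb1, which carries cargo into the nucleus (r = 0.85, rho = 0.87), Xpo4, an exportin (r = 0.83, rho = 0.82), Ipo4, an importin (r = 0.82, rho = 0.87), Pom121, a nuclear pore protein (r = 0.81, rho = 0.76), and Bms1, a ribosome biogenesis GTPase (r = 0.81, rho = 0.76). Without the 2 tumours farthest from the median of Gemin5 these r were 0.85, 0.76, 0.82, 0.73 and 0.73. They were picked as the highest, so they carry no test. Their KCL-HO-1i averages lay between -0.27 and -0.20. Kpnb1 is also in the list of snRNA transport and cap proteins. Among the members Ddx20 ranked highest in likeness to Gemin5, at 1369 of 13662 (percentile 90.0), and Gemin7 lowest, at 11998 (percentile 12.2). The percentiles were 89.1 for Strap, 87.1 for Smn1, 82.6 for Gemin2, 80.9 for Gemin6, 49.5 for Gemin4 and 16.8 for Gemin8.

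The spread between tumours of a group differed among members. The within-group SD of Gemin5 was 0.18 on the log2 scale, as was that of Smn1 (0.18), and that of Gemin8, the member with the fewest reads, was 0.32, beside a median of 0.33 over all tested genes. The Gemin5 SD ranked at percentile 13.8 of all tested genes, and that of Gemin8 at percentile 48.9, without regard to their levels. Among tested genes of like level the median SD was 0.25 for Gemin5, 0.26 for Smn1 and 0.40 for Gemin8. The test by which Gemin5 was chosen uses this spread, so its low SD is not read as a trait.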

How the data were processed

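Total RNA of mammary tumours was sequenced from a stranded kit, per the labels. The deposited values are expected counts (estimated reads per gene), which the authors made with FastQC 0.11.9, STAR 2.7.9a, Salmon 1.9.0 and tximport. The methods speak of TPM, but library totals differ and 38.0% of values are not whole, so they were read as estimated counts and rounded. The processing notes name mm10; the annotation release and the strand setting are not given in the sources used here. Coordinates are those of GENCODE vM21 and RefSeq GRCm38.p6, the same build, and 13562 of 13663 tested symbols matched GENCODE.

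The fit used edgeR 4.0.16 in R 4.3.3 (filterByExpr with a minimum count of 10, TMM, robust quasi-likelihood, 6 group means, 30 libraries), with Benjamini-Hochberg adjustment over 13663 genes and a threshold of 0.05. CPM are counts scaled to the effective library size. Averages are means of the differences in each background. Correlations used log2 CPM (prior count 2) and 100000 permutations within groups, two-sided. DESeq2 1.42.0, limma-voom (limma 3.58.1), other normalisations, filters, covariates, a replicate block and each library left out were alternatives. The pipeline was tested on simulated data. The p-values measure the spread between these tumours, which the labels do not tie to separate litters.

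The members, lists and tests were chosen with earlier results of these data known. Named genes were the 9 members, Hmox1, in each pathway list any gene past the threshold and otherwise the 2 with the smallest p, the 5 genes most correlated with Gemin5, and the tested neighbours of Gemin5 and Gemin4. Glod4, Zfp296, Lcp2, Bin2 and single markers were named after their values were seen. No duplicate libraries were found: the lowest chi-square per degree of freedom over 60 pairs was 19.6. Same replicate numbers did not pair samples (mean residual correlation 0.00284 over 75 pairs).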

Additional observations from a re-analysis of the deposited data

Results flagged for a closer look

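In 54 groups of 5 tumours (9 genes in 6 groups), 3 held a tumour whose gap to the nearest other exceeded 0.71 of the range of the group on the log2 scale, and chance alone marks about 1 in 20 groups. Gemcitabine replicate 3 was highest for Gemin6, at 32.7 CPM, and for Gemin7, at 74.7 CPM. KCL-HO-1i replicate 4 was lowest for Gemin8, at 5.87 CPM. No interaction term of a member passed the threshold.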

How the results depend on the processing

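Normalisation by RLE or library totals, dropping the filter or raising it to a mean of 50 counts, and the replicate block left 1 member called in the KCL-HO-1i average; with the replicate block Gemin5 was at -0.37 (adjusted p = 0.0411). DESeq2 called 4 members and 2 pathway genes among 1139 of 13663 genes, limma-voom 2 and 1 among 263, and edgeR 8 genes in all. With the mouse code as a factor 0 members were called and Gemin5 was at -0.053, with adipocyte, macrophage, luminal or proliferation scores 0 members and -0.37, -0.35, -0.35 and -0.28, and without the libraries high in adipocyte or muscle markers 0 members and -0.43. The last 2 alternatives were chosen after seeing the data, and the cause of these losses was not tested. With 1 library left out, members called ranged from 0 to 4, pathway genes from 0 to 4 and Gemin5 from -0.43 to -0.35; 4 members were called without replicate 5 of 5-FU or of gemcitabine, where 573 (4.16%) and 1130 (8.17%) of all genes were called. Chemotherapy and interaction counts of members stayed at 0 in every alternative run. With a prior count of 0.5, 13 correlated pairs passed, as before. The replicate numbers only name tumours. Members were sampled by 59 to 2279 reads, and counting error is part of the spread between tumours.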

Other observations

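Gemin5 was also set beside its neighbours on chromosome 11. Over the 40 nearest tested genes (chr11:54717456-59192212) the median KCL-HO-1i average was -0.01 on the log2 scale, and 22 of 40 were negative. The nearest tested genes were Cnot8, a subunit of the CCR4-NOT deadenylase, at -0.00 and Mrpl22, a mitochondrial ribosomal protein, at -0.13. For Gemin4 they were Fam57a at 0.03 and Mrm3 at -0.09, and Glod4, whose exons Gemin4 shares, was at 0.05.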
